A study of Mus musculus with 12 samples.

Results

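Core histones H2A, H2B, H3 and H4 form the spool around which DNA is wound, and linker histones of the H1 family bind where DNA enters and leaves it. The genes fall into 2 classes. Replication-dependent genes lie in clusters, have no introns in most cases and are expressed mainly in S phase, when new DNA must be packed. Their mRNAs normally end in a conserved stem-loop that is bound by the stem-loop binding protein (Slbp) in place of a poly(A) tail, and some of them are also made in a polyadenylated form, in particular in cells that leave the cell cycle. Variant genes lie alone, give polyadenylated mRNAs and are expressed throughout the cycle. They include the H2A.Z, H2A.X and macroH2A proteins, H3.3 and the linker variant H1.0.

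Histone genes were taken as all array probes whose gene name in the scanner files starts with Hist1h, Hist2h, Hist3h or Hist4h, or with H1f, H2af or H3f and a further letter or digit. The rule found 75 of the 39429 gene probes of the array, for 62 gene names. Of these, 51 probes for 47 genes carry a Hist name and are called replication-dependent here, and 24 probes for 15 genes are called variants. All 75 were detected, which here means that in 1 group or more each of the 3 arrays read the probe as well above background. On all 12 arrays 73 were, the exceptions being Hist2h2ab, which was so on 2 of the 3 knockdown arrays with vehicle, and H2afb2, which was so on 2 of 3 arrays of that group and of the control group with TGFb.

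The cells were neural stem cells of the mouse, obtained from cerebral cortex at E12.5. The control line was stably transfected with a random shRNA and the knockdown line with 1 shRNA against JMJD3, the product of Kdm6b and a demethylase of histone H3. Both were studied with vehicle and after 2.5 h in 5 ng/ml of TGFb, a secreted growth factor, which gives 4 groups with 3 samples each, every sample on an array of its own. Whether the samples of a group came from separate cultures is not stated, so the p-values may rest on technical spread alone, and a line cannot be told apart from its shRNA. RNA was copied from an oligo-dT primer, which starts at poly(A).

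Levels are log2 of the processed signal minus each array's 75th percentile, so that 0 is the level of a probe brighter than 75% of probes, and the levels of different probes are not compared. Replicates of a group correlated at 0.994 to 0.998. No gene spot was saturated (0 on each array). Kdm6b stood at -0.72, -0.61 and -0.62 on the control arrays with vehicle and at -1.83, -1.78 and -1.84 on the matching knockdown arrays. It was 2.25-fold lower (limma, adjusted p = 1.1e-07), and 2.64-fold lower with TGFb (limma, adjusted p = 2.8e-08). All 11 neural stem cell markers examined, Nes, Sox2 and Pax6 among them, were well above background on all 12 arrays. Many of them differed between the lines, 4 higher and 4 lower of 11 without TGFb (72.7% called, where 28.6% of all probes were) and 3 higher and 2 lower with it (45.5%, where 29.7% were). Without TGFb Hes5, Sox2, Slc1a3 and Prom1 were higher, by 0.77, 0.73, 0.67 and 0.34, and Sox1, Nes, Emx2 and Vim fell by 0.38, 0.34, 0.27 and 0.21. Markers of other cells differed too. Of 6 neuronal markers measured 2 were higher without TGFb (Dcx by 1.12 ± 0.21, Syt1 by 1.05 ± 0.16) and Rbfox3, named D11Bwg0517e in the files, fell by 1.28 ± 0.09. Of 5 astrocyte markers Gfap was higher by 0.97 ± 0.10, and of 6 oligodendrocyte lineage markers 1 was higher and 3 lower, Pdgfra having fallen by a log2 difference of -1.98 ± 0.06. Summed neuronal markers ran from 13.95 to 15.81 times the 75th percentile on control arrays with vehicle and from 15.16 to 16.13 on knockdown arrays, astrocyte markers from 3.79 to 4.12 and from 3.62 to 4.03, and oligodendrocyte lineage markers from 49.9 to 54.0 and from 44.4 to 46.7. Their part in the histone differences was not tested. Neurod6 of neurons, Aif1 of microglia, Cdh5 of endothelium and Lum and Pdgfrb of fibroblasts were not detected in any group.

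What the probes can tell apart differs between histone genes, because the coding regions of a family are almost the same. The probes of Hist1h2ak, Hist1h2af, Hist1h2an and Hist2h2aa2 are shown since they cover the same stretch of H2A and end with its stop codon. Capitals mark bases that differ from the Hist1h2ak probe.
Hist1h2ak: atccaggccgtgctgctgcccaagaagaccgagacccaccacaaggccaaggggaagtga
Hist1h2af: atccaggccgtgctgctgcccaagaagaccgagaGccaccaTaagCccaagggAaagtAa
Hist1h2an: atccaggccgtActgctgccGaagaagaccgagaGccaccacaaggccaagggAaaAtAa
Hist2h2aa2: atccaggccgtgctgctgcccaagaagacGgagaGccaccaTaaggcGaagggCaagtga
They differ from the Hist1h2ak probe (chr13:21845304-21845363, mm9, minus strand) at 5, 6 and 5 of 60 bases. With Hist1h2ag and Hist1h2ah, whose probes are shifted by a few bases, they form a group of 6 probes in which each shares at least 45 bases with another. Their processed signals ran from 339000 to 515000, against 594000 to 724000 for the brightest gene probe of each array, so they are among the brightest probes. These probes cannot be taken as separate measurements of 6 genes. The same holds for Hist1h4c, Hist1h4d, Hist1h4j and 1 probe of Hist1h4k, for Hist2h2ac with 1 probe of H2afj, and for Hist1h3c with Hist1h3f. The file positions of the Hist2h2ac probe (chr3:96049834-96049896) and the Hist2h2aa2 probe (chr3:96049837-96049896) overlap as well.

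The 2 probes with the highest fold differences below are from H2B coding sequence, at bases 90 to 150 of the Hist1h2bm transcript and 155 to 215 of the Hist1h2ba transcript. No other histone probe shares 45 or more bases with either of them. The search compared probes with probes and not with transcripts, so whether these 2 also read other H2B mRNAs was not tested.
Hist1h2bm: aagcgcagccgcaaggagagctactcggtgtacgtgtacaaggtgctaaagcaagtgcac
Hist1h2ba: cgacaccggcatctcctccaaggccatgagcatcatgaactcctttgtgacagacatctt
The Hist1h2bm probe lies at chr13:21814057-21814116 (mm9, plus strand) and the Hist1h2ba probe at chr13:24025811-24025870 (minus strand).

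Some probes reach the stem-loop at the mRNA's end. The 16 letters in capitals below, a stem of 6 bases with its loop, were found in full in 4 of the 39429 gene probes (0.0101%), and all 4 are replication-dependent histone probes. The Hist1h2ae probe begins inside the stem-loop with its last 12 bases. Up to 30 bases around each are shown.
Hist2h2aa1: taaaaaGGCTCTTTTCAGAGCCacccactg
Hist2h2bb: cccaaaaGGCTCTTTTCAGAGCCacttta
Hist1h3a: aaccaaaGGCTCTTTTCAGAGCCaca
Hist1h3i: aacaaaaGGCTCTTTTCAGAGCCccctc
Hist1h2ae: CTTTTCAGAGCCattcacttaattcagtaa

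TGFb moved no histone probe past the test in either line. In control cells limma called 0 of 75, with 5 at an unadjusted p under 0.05, where 9.92% of the 29972 probes tested were called. In knockdown cells it called 0 of 75 as well, with 5 at an unadjusted p under 0.05, against 9.15% of all probes. The differences ran from -0.40 to 0.31 in control cells and from -0.22 to 0.70 in knockdown cells. Their medians were -0.02 and -0.04 over the replication-dependent probes and 0.02 and -0.01 over the variants, against -0.01 and -0.02 over all probes. The median standard error of a histone probe was 0.09 in both lines.

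Linker histone genes, with 6 replication-dependent and 4 variant probes of the 75, held 4 of the 5 lowest unadjusted p-values in control cells. None passed (smallest limma adjusted p = 0.123), and linker differences went in both directions, from -0.40 to 0.29. This ranking was seen with the values known and was not tested. Hist1h1a, a replication-dependent H1, stood at -2.26, -2.02 and -2.01 with vehicle and at -1.97, -1.75 and -1.70 with TGFb in control cells. In knockdown cells it stood at -1.78, -2.07 and -2.14 with vehicle and at -2.20, -2.21 and -2.22 with TGFb. The groups of each line did not overlap and lay in opposite order, with differences of 0.29 ± 0.11 (SE, n = 3 arrays a group, limma adjusted p = 0.138) and -0.22 ± 0.11 (adjusted p = 0.294). The difference of the 2 responses was -0.50 ± 0.15 (limma, adjusted p = 0.609), which did not pass. Within slides the control response was 0.05 on slide 2 and 0.26 on slide 3. Hist1h1e had a difference of responses of -0.36 ± 0.12 (limma, adjusted p = 0.761). None of the 75 passed in that comparison (limma called 0, with 2 at an unadjusted p under 0.05), in which 0.0801% of all probes were called. The lowest adjusted p under TGFb was that of the Hist1h4i probe at the gene's 3′ side in knockdown cells, with a difference of 0.24 ± 0.07 (limma, adjusted p = 0.0648).

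The lines differed at histone genes with and without TGFb. Without TGFb 23 of the 75 probes were called, or 30.7%, where 28.6% of all probes were, so the share called was near the background. Of these, 16 were higher in the knockdown line and 7 were lower, while of all 29972 probes 3750 were higher and 4813 lower. The size of the rises stood further from the background: 8 of the 75 were called and at least 2-fold higher, where 1.18% of all probes were, and 0 were called and at least 2-fold lower, where 0.761% were. With normexp background correction or the authors' values 5 were at least 2-fold higher, where 0.477% and 0.490% of all probes were, since the dim probes of Hist1h1d, Hist1h1t and Hist1h2bg came out below 2-fold. With TGFb, 27 of 75 were called (36.0%, background 29.7%), 17 higher and 10 lower, beside 3534 and 5364 of all probes, with 7 at least 2-fold higher (background 1.14%) and 0 at least 2-fold lower (background 0.704%). The 2 comparisons share no array. Across the 75 probes their differences correlated at a Pearson r of 0.933 and a Spearman rho of 0.753, given as a description over probes of which some are near copies. Called in both were 20 probes, 14 higher and 6 lower, where 6597 of all 29972 probes (22%) were called in both with the same direction.

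**Figure D1:**
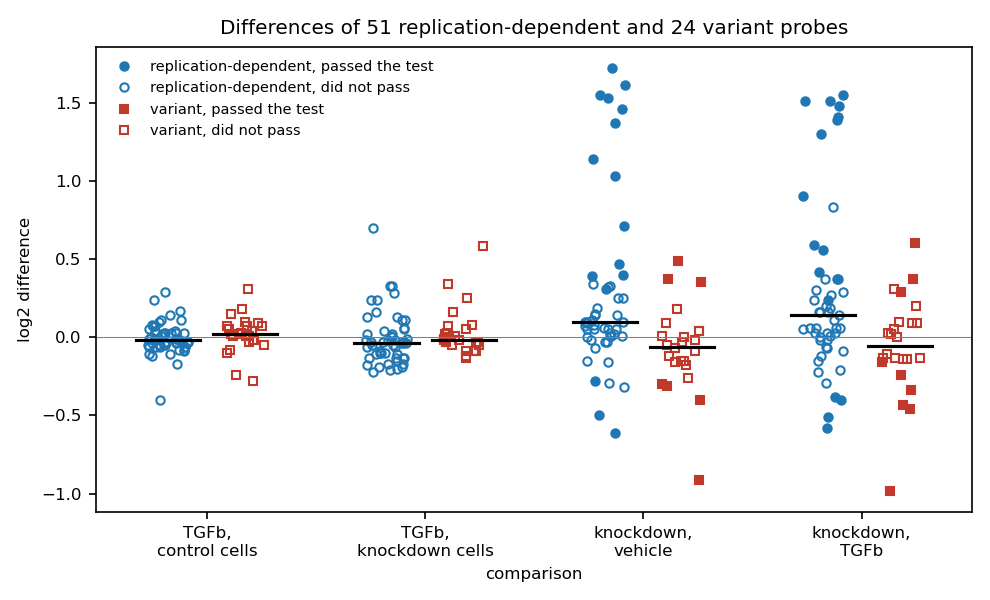
Log2 differences of each histone probe (vertical axis) in the 4 comparisons of groups of 3 arrays (horizontal axis), with circles for replication-dependent and squares for variant probes, filled where limma's adjusted p was under 0.05. Black bars are medians. No symbol is filled under TGFb, and the points above 1 under knockdown are replication-dependent genes.

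The rises of 2-fold or more were all in replication-dependent genes. Of the 51 such probes 13 were higher and 3 lower without TGFb, and 14 were higher and 4 lower with it, with medians of 0.10 and 0.14. Of the 24 variant probes 3 were higher and 4 lower without TGFb, and 3 higher and 6 lower with it, with a median of -0.06 each time. Called were 31.4% and 35.3% of the replication-dependent probes and 29.2% and 37.5% of the variants, where 28.6% and 29.7% of all probes were. The median of all probes was -0.03 in both comparisons. The 2 classes were not tested against each other.

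**Figure D2:**
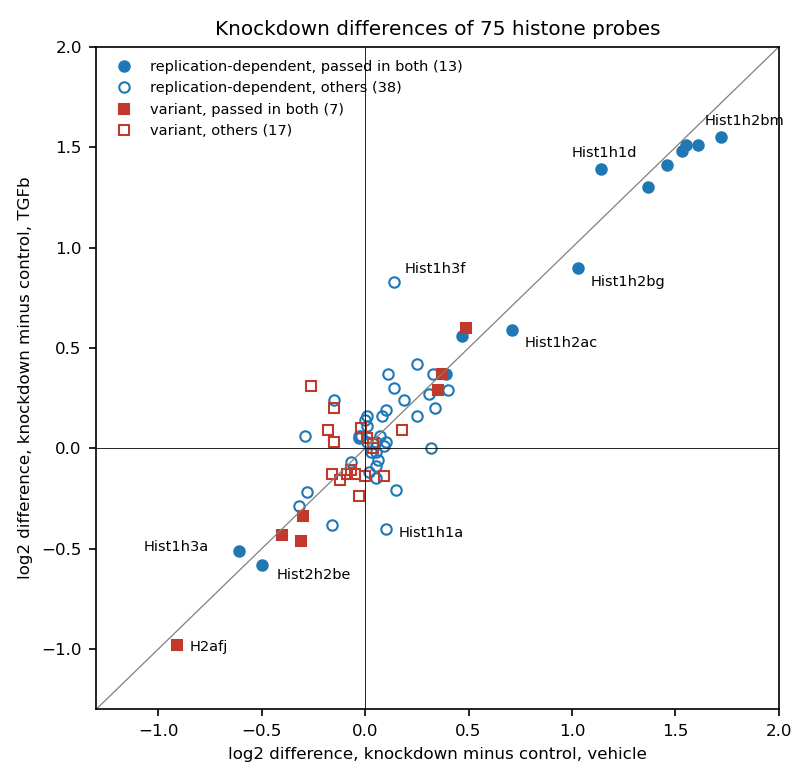
Log2 difference between knockdown and control lines with vehicle (horizontal axis) and with TGFb (vertical axis) for 75 histone probes, each a difference of means of 3 arrays a group. Filled symbols passed the test in both, and the grey line marks equal differences. The points at the upper right lie near the line, and Hist1h3f and Hist1h1a, open, lie away from it.

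Linker histones had some of the clearest rises. Hist1h1c (H1.2 type, chr13:23832018-23832077, plus strand) stood at 2.71, 2.63 and 2.55 on control arrays with vehicle and at 4.22, 4.10 and 4.17 on knockdown arrays. With TGFb it stood at 2.55, 2.55 and 2.64 and at 4.11, 4.01 and 4.06. All 6 knockdown arrays lay above all 6 control arrays, by 1.53 ± 0.05 (2.89-fold, limma adjusted p = 1.9e-08) and 1.48 ± 0.05 (adjusted p = 1.9e-08). Within slides the differences were 1.51, 1.47 and 1.62 without TGFb and 1.56 and 1.39 with it. Hist1h1d (chr13:23649787-23649846, plus strand) stood at -5.73, -6.09 and -6.09 in controls and at -4.67, -4.87 and -4.95 in knockdown cells, a rise of 1.14 ± 0.16 (limma, adjusted p = 0.00028). With TGFb it stood at -6.60, -6.36 and -6.14 against -5.15, -5.01 and -4.78, a rise of 1.39 ± 0.16 (limma, adjusted p = 7.1e-05). Hist1h1t (chr13:23788343-23788402, plus strand), the gene of a testis-specific H1, stood at -6.91, -6.72 and -6.65 in controls and at -5.44, -5.33 and -5.38 in knockdown cells, a rise of 1.37 ± 0.14 (limma, adjusted p = 2.7e-05).

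The latter 2 probes are dim, and their size depends on the background. With normexp background correction the Hist1h1d rise was 0.52 and the Hist1h1t rise 0.57 without TGFb, and with TGFb they were 0.61 and 0.41, each still called. The other linker genes did not share the rise: Hist1h1b differed by -0.32 and Hist1h1e by 0.15 without TGFb, and neither passed. Hist1h1a fell in the comparison with TGFb, by 0.40 ± 0.11 (limma, adjusted p = 0.0137), while without TGFb it differed by 0.10. Among the linker variants 0 of 4 were called by limma, with 1 at an unadjusted p under 0.05 without TGFb and 0 with it. With the slide as a block H1fx was called in both comparisons, at 0.18 (limma, adjusted p = 0.0108) and 0.15 (limma, adjusted p = 0.0375). H1f0, the gene of H1.0, which is known to accumulate in differentiated cells, differed by -0.15 ± 0.10 and 0.03 ± 0.10. H1fx differed by 0.18 ± 0.06 (limma, adjusted p = 0.054) and 0.09.

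Genes of H2B held 4 of the 8 probes that rose at least 2-fold. Hist1h2bm stood at 1.03, 1.21 and 1.10 on control arrays with vehicle and at 2.70, 2.91 and 2.88 on knockdown arrays, and with TGFb at 1.19, 1.15 and 0.99 and at 2.79, 2.54 and 2.65. The groups lay well apart, with rises of 1.72 ± 0.08 (3.29-fold, limma adjusted p = 1.5e-07) and 1.55 ± 0.08 (adjusted p = 3.1e-07). Hist1h2ba, known as the testis H2B, stood at 0.92, 1.09 and 0.96 against 2.52, 2.65 and 2.64, a rise of 1.61 ± 0.07 (3.06-fold, limma adjusted p = 1.1e-07), and rose by 1.51 ± 0.07 with TGFb. Hist1h2bc (chr13:23784254-23784313, plus strand) stood at 3.88, 3.76 and 3.66 against 5.41, 5.26 and 5.30, a rise of 1.55 ± 0.07 (2.94-fold, limma adjusted p = 9e-08), and rose by 1.51 ± 0.07 with TGFb.

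Hist1h2bg (chr13:23663823-23663882, plus strand) was the fourth. It stood at -4.87, -4.85 and -4.91 against -3.79, -3.88 and -3.86, a rise of 1.03 ± 0.08 (limma, adjusted p = 2.9e-06). With TGFb its rise was 0.90 ± 0.08, and with normexp 0.71 and 0.56. Hist3h2ba rose by 0.37 ± 0.12 with TGFb (limma, adjusted p = 0.0301), a call lost under 6 of 23 alternatives. Falls were seen at Hist2h2be, which stood at -3.10, -2.92 and -2.98 against -3.49, -3.51 and -3.49. It fell by 0.50 ± 0.07 without TGFb (limma, adjusted p = 0.00026) and by 0.58 ± 0.07 with it (limma, adjusted p = 9.1e-05). Hist1h2bp fell by 0.28 ± 0.10 (limma, adjusted p = 0.0476), a call lost under 17 of 23 alternatives. Hist1h2be, Hist1h2bb, Hist2h2bb and Hist3h2bb did not pass in either comparison.

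**Figure D3:**
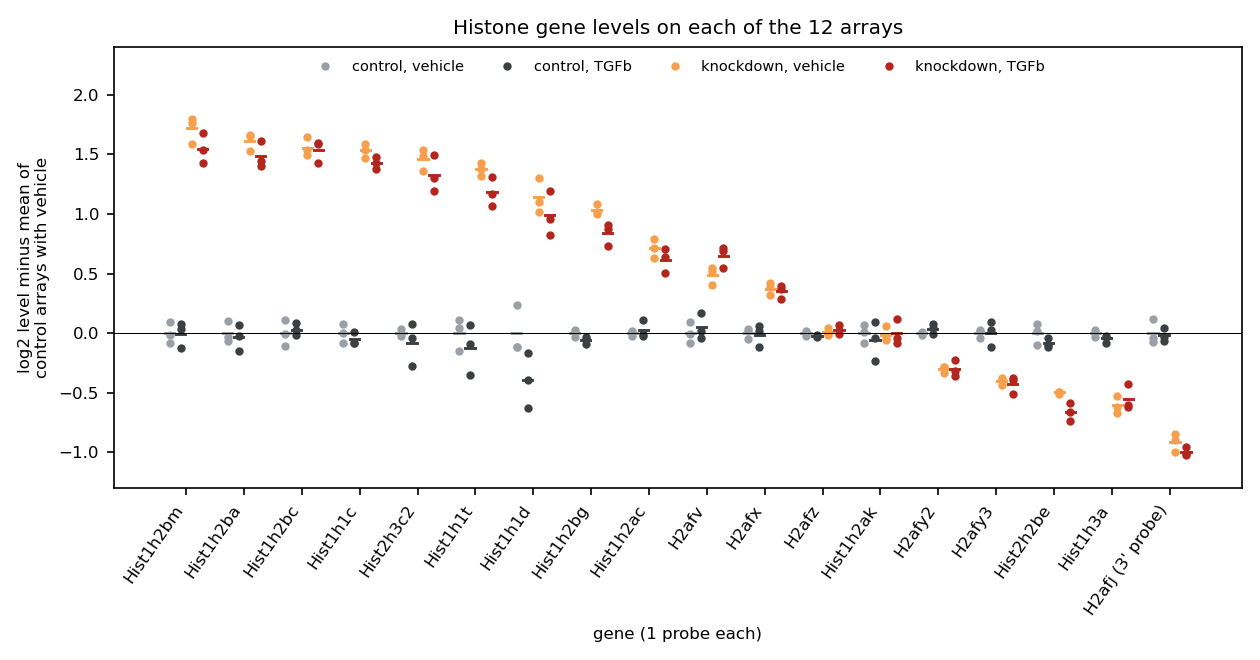
Level of 18 histone genes on each of the 12 arrays, as log2 minus the mean of the 3 control arrays with vehicle (vertical axis), by gene (horizontal axis). Points are single arrays, coloured by group, and short bars are group means. Grey and black points, the control line, stay near 0 for most genes. For Hist1h1d the black points, with TGFb, lie below it, with a mean level of -6.37 against -5.97 with vehicle. Orange and red points, the knockdown line, lie above 0 from Hist1h2bm to H2afx and below it from H2afy2 to the 3′ probe of H2afj.

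Of the 15 replication-dependent H2A probes 2 were called without TGFb (13.3%) and 4 with it (26.7%), where 28.6% and 29.7% of all probes were. The share with TGFb was near the background, and 6 of the 15 probes are not separate measurements, as said above. The 6 near-identical bright probes differed by -0.03 to 0.10 without TGFb and by -0.06 to 0.06 with it, and limma called 0 of the 6 each time. Over all 15 probes 3 had an unadjusted p under 0.05 without TGFb and 5 with it. Hist1h2ac (chr13:23773343-23773402, minus strand) stood at -4.41, -4.38 and -4.37 against -3.67, -3.76 and -3.60, a rise of 0.71 ± 0.08 (limma, adjusted p = 6.3e-05), and rose by 0.59 ± 0.08 with TGFb. Its rise was 0.45 and 0.42 with normexp. Hist1h2ae rose by 0.47 ± 0.13 (limma, adjusted p = 0.0182) and 0.56 ± 0.13 (limma, adjusted p = 0.00659). The first of these calls was lost under 4 of 23 alternatives. Hist3h2a rose by 0.24 ± 0.06 with TGFb (lost under 4 of 23) and Hist1h2ab fell by 0.38 ± 0.12 with TGFb (lost under 10 of 23).

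Among H3 genes Hist2h3c2 (chr3:96042034-96042093, minus strand) stood at -1.14, -1.08 and -1.12 against 0.25, 0.42 and 0.37 in knockdown cells, a rise of 1.46 ± 0.09 (2.75-fold, limma adjusted p = 9.9e-07). With TGFb it stood at -1.04, -1.15 and -1.39 against 0.38, 0.08 and 0.19, a rise of 1.41 ± 0.09. The groups did not overlap. Hist1h3g rose by 0.39 ± 0.07 and 0.37 ± 0.07, and Hist2h3c1 rose by 0.31 ± 0.11 without TGFb (limma, adjusted p = 0.0448, lost under 10 of 23 alternatives). With TGFb Hist2h3c1 differed by 0.27 ± 0.11 (limma, adjusted p = 0.0778). Hist1h3a, whose probe holds the stem-loop printed above, fell. It stood at -3.73, -3.79 and -3.76 against -4.29, -4.43 and -4.38, a fall by 0.61 ± 0.08 (limma, adjusted p = 0.00014), and it fell by 0.51 ± 0.08 with TGFb. Of the other 3 probes that hold the whole stem-loop, Hist2h2aa1, Hist2h2bb and Hist1h3i differed by 0.00, 0.05 and 0.01 without TGFb and by 0.14, -0.09 and 0.11 with it, none of them called.

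Hist1h3f, singled out after its values were seen, varied by slide. Its level ran from -2.09 to -1.58 on the 5 arrays of slides 1 and 4 and from -3.69 to -3.01 on the 7 arrays of slides 2 and 3. The difference of 0.83 ± 0.61 with TGFb did not pass. The similar probe of Hist1h3c ran from 1.66 to 1.88 on slides 1 and 4 and from 0.76 to 1.29 on slides 2 and 3. Of the 11 H4 probes limma called 1 without TGFb and 1 with it (9.09% each time), where 28.6% and 29.7% of all probes were. Of these 11 probes 4 form the group of similar probes named above and are not separate measurements. The 11 probes differed by 0.01 to 0.40 without TGFb, where Hist2h4 passed with 1 of its 2 probes (0.40 ± 0.13, limma adjusted p = 0.0436, lost under 13 of 22 alternatives) while the other differed by 0.03. With TGFb they differed by -0.15 to 0.42, and Hist1h4j passed (0.42 ± 0.11, limma adjusted p = 0.0126, lost under 3 of 23).

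The probes that rose sit among probes that did not. On chromosome 13 the 37 replication-dependent probes span 2.21 Mb. Of the 10 that rose without TGFb 6 have a neighbouring probe that rose too, in the runs Hist1h1d, Hist1h2ae and Hist1h2bg and Hist1h2ac, Hist1h2bc and Hist1h1t, and 4 have none. The Hist1h2ba probe lies 0.7 kb from that of Hist1h2aa, which differed by 0.11, and the Hist1h1c probe lies 5.3 kb from that of Hist1h3c, which differed by -0.15. Hist1h1t lies 1.9 kb from Hist1h4c, which differed by 0.14. The probes of Hist1h3c and Hist1h4c are among the similar probes named above, so they need not read those genes alone.

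**Figure D4:**
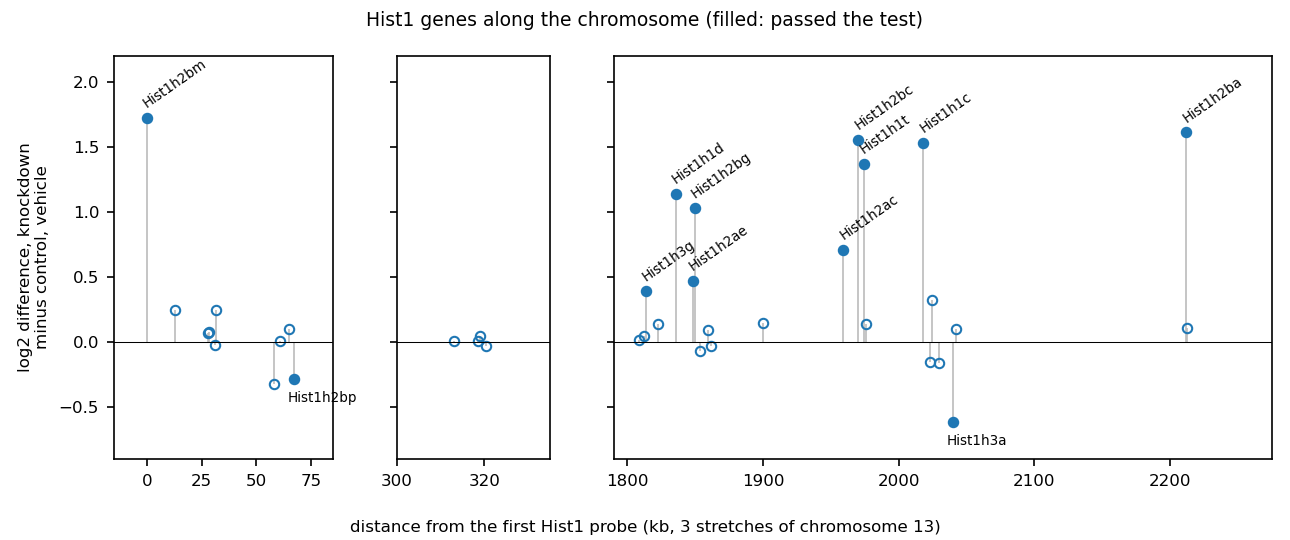
Log2 difference between knockdown and control lines with vehicle (vertical axis) for the 37 replication-dependent probes of chromosome 13, by distance from the first probe in kb (horizontal axis, 3 stretches at different scales, with the gaps left out). Filled points passed the test and carry names. Of the 37 points 10 are filled above 0 and 2 filled below it, with open points between them.

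Where the probe lies in the gene set the rising probes apart from many others. For 50 of the 51 replication-dependent probes the RefSeq table (GRCm38.p6) gave a gene length. In 9 of these genes the probe ends past the end of the RefSeq gene, since the transcript it was placed on is longer than that model. Without TGFb 6 of these 9 were higher and 0 lower, with a median of 0.71, and with TGFb 8 of 9 were higher and 0 lower, with a median of 0.59. Of the 41 probes within the RefSeq gene 7 were higher and 3 lower without TGFb, and 6 higher and 4 lower with it, with a median of 0.06 each time. Called were 66.7% and 88.9% of the 9 and 24.4% of the 41 each time, where 28.6% and 29.7% of all probes were. The 9 are Hist1h1c, Hist1h1d, Hist1h2ac, Hist1h2ae, Hist1h2bg, Hist2h3c2, Hist3h2a, Hist3h2ba and the 3′ probe of Hist1h4i, the last of which passed in neither. The Hist1h4i probe within the gene differed by 0.05 and -0.15 and the one past its end by 0.01 and 0.16. The split was made with the values known and was not tested. It does not cover all rises, since Hist1h2bm and Hist1h2ba were read by coding probes and Hist1h1t by one ending before the gene's end. It does not cover Hist1h2bc either, whose probe at bases 632 to 692 of the transcript counts as within a RefSeq gene of 8282 bases. Nor did every probe far along its transcript rise. Those of Hist2h2be and Hist1h2be start at bases 1849 and 2374, within RefSeq genes of 2667 and 37455 bases. Hist2h2be fell in both comparisons, and Hist1h2be differed by -0.03 and 0.06. Hist1h2bp, in a RefSeq gene of 14079 bases, differed by -0.28 and -0.22.

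**Figure D5:**
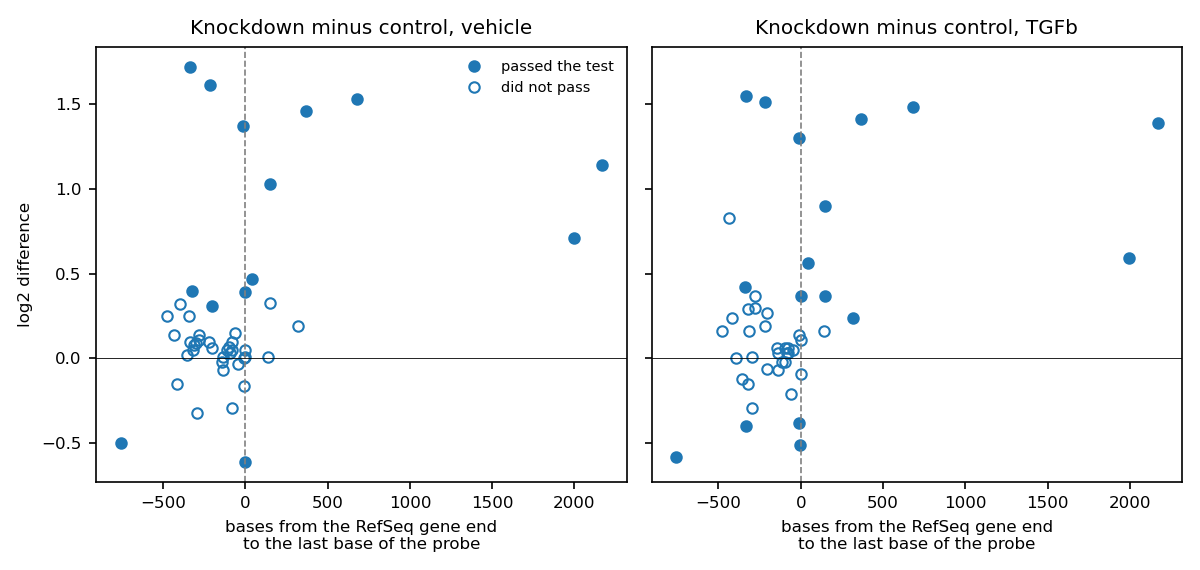
Log2 difference between knockdown and control lines (vertical axis) for 47 replication-dependent probes, by the distance in bases from the end of the RefSeq gene to the last base of the probe (horizontal axis), with vehicle on the left and TGFb on the right. Filled points passed the test. The 9 points right of the dashed line lie at or above 0, and 3 probes of genes longer than 5000 bases (Hist1h2bc, Hist1h2be and Hist1h2bp) are left out.

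Variant genes moved in both directions. H2afv, the gene of H2A.Z.2, rose with both of its probes. The probe at base 651 of the transcript stood at 5.19, 5.19 and 5.24 on control arrays with vehicle and at 5.54, 5.56 and 5.56 on knockdown arrays. Its rise was 0.35 ± 0.04 (limma, adjusted p = 7e-05), and 0.29 ± 0.04 with TGFb. The other probe rose by 0.49 ± 0.07 and 0.60 ± 0.07. H2afz, the gene of H2A.Z.1, which replaces H2A at promoters as H2A.Z.2 does, did not pass with either probe, but under quantile normalization both were called higher. The one at base 897 stood at 5.10, 5.11 and 5.07 against 5.09, 5.08 and 5.14, a difference of 0.01 ± 0.04, and of 0.05 ± 0.04 with TGFb. Its values under quantile normalization were 0.13 in both comparisons. H2afx, whose protein is phosphorylated at DNA breaks and whose gene also gives a stem-loop mRNA, stood at 4.82, 4.89 and 4.91 against 5.19, 5.26 and 5.29. It rose by 0.37 ± 0.05 in both comparisons (limma, adjusted p = 0.00035 and 0.00038).

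The macroH2A proteins carry a large extra domain. H2afy2 (macroH2A2) stood at 2.75, 2.76 and 2.73 against 2.46, 2.41 and 2.46, a fall by 0.30 ± 0.04 (limma, adjusted p = 0.0003), and it fell by 0.34 ± 0.04 with TGFb. H2afy3, named Macroh2a3 in the RefSeq table, fell by 0.40 ± 0.06 and by 0.43 ± 0.06. Its RefSeq transcript is labelled as non-coding RNA, so it is not read here as a gene of a macroH2A protein. In that table its gene lies within Pvt1, whose strand is not given there. H2afy (macroH2A1) had probes that disagreed. The probe at chr13:56189613-56189672 fell by 0.31 ± 0.10 (limma, adjusted p = 0.0307, lost under 10 of 22 alternatives) and by 0.46 ± 0.10 with TGFb, the probe at chr13:56205682-56205741 differed by -0.03 and fell by 0.24 ± 0.07 with TGFb (lost under 7 of 22), and the probe at chr13:56184528-56184587 differed by 0.09 and -0.14, not called.

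H2afj showed the largest fall of any histone probe, with 1 of its 2 probes. The probe at base 1664 of the transcript (chr6:136758433-136758492, plus strand) stood at 0.40, 0.37 and 0.56 against -0.55, -0.40 and -0.45. It fell by 0.91 ± 0.06 (1.88-fold, limma adjusted p = 1.1e-06) and by 0.98 ± 0.06 with TGFb. The probe at base 412 is the one that resembles Hist2h2ac, and it differed by 0.04 and 0.02 (0.20 without TGFb under quantile normalization, limma adjusted p = 0.0252). Of the H3.3 genes, which supply H3 outside S phase, H3f3a fell by 0.16 ± 0.04 with TGFb at 1 of 2 probes (limma, adjusted p = 0.0165, lost under 6 of 22), and the 3 probes of H3f3b differed by -0.05 to -0.09 without TGFb and by -0.11 to -0.13 with it, none called. H2afb2 and H2afb3 did not pass with any probe, and 1 of the 2 H2afb3 probes lies on chromosome 17, with a description in the file that names a vacuolar protein sorting transcript, while the other lies on X.

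Among genes that process histone mRNA the clearest difference was at Slbp. Slbp, which binds the stem-loop and is needed for its 3′ end to be cut, stood at 1.09, 1.36 and 1.22 on control arrays with vehicle and at 0.26, 0.39 and 0.35 on knockdown arrays with its brighter probe. With TGFb it stood at 1.11, 1.06 and 1.13 against 0.10, 0.07 and -0.04. The groups did not overlap, with falls by 0.89 ± 0.07 (1.86-fold, limma adjusted p = 3.2e-06) and by 1.06 ± 0.07 (2.08-fold, limma adjusted p = 1e-06). Its second probe fell by 0.95 ± 0.06 and by 0.99 ± 0.06. Of the 16 genes listed, 0 were higher and 3 lower without TGFb and 0 higher and 4 lower with it, with medians of -0.04 and -0.13. These shares of 18.8% and 25% called were below those of all probes, 28.6% and 29.7%. Zcchc11, which adds uridines to RNA ends, fell by 0.41 ± 0.06 and by 0.45 ± 0.06, and Dis3l2, an exonuclease for such tails, by 0.24 ± 0.06 and by 0.29 ± 0.06. Cpsf1 fell by 0.23 ± 0.06 with TGFb, a call lost under 5 of 23 alternatives. Npat, the activator of replication-dependent histone genes, differed by 0.01 ± 0.43 and 0.40 ± 0.43, too wide a spread to read. The part of Slbp in the rises above was not tested.

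In other histone-linked lists the share called was mostly below that of all probes. Of 29 histone chaperone and deposition genes 0 were higher and 4 lower without TGFb (Rbbp7, Supt16h, Set and Daxx, by 0.19 to 0.26), and 0 higher and 5 lower with it (Chaf1a, Hjurp, Chaf1b, Hira and Set), or 13.8% and 17.2%, against 28.6% and 29.7% of all probes. Their medians were -0.10 and -0.09. Of 29 S phase genes 4 were higher and 2 lower without TGFb, and 3 higher and 7 lower with it (20.7% and 34.5%), with medians of -0.03 and -0.11. Ccne1, the cyclin that starts S phase, rose by 0.60 ± 0.05 and 0.51 ± 0.05, and Rrm2, a subunit of ribonucleotide reductase, by 0.35 ± 0.05 and 0.26 ± 0.05. Of the subunits of the replicative helicase, Mcm5 and Mcm6 fell by 0.21 and 0.20 without TGFb and by 0.25 and 0.22 with it, while Mcm2 rose by 0.22 ± 0.07 without TGFb (limma, adjusted p = 0.0425, lost under 11 of 23 alternatives) and differed by 0.14 with it. The summed S phase level ran from 342 to 365 times the 75th percentile on control arrays with vehicle and from 345 to 351 on the knockdown arrays. Of 15 mitosis genes 2 were higher and 1 lower (20.0%), and 1 higher and 1 lower with TGFb (13.3%). In bulk RNA, fewer cells in S phase and less RNA per cell cannot be told apart.

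RNAs made without a poly(A) tail by another route gave no common shift. Of 4 listed, Rmrp, Rpph1 and Terc were measured, and limma called 0 of 3 without TGFb, with 0 at an unadjusted p under 0.05. With TGFb 1 of 3 was lower, Rmrp, by 0.58 ± 0.17 (limma, adjusted p = 0.0206, lost under 3 of 23 alternatives). Cenpa, the centromeric H3 variant, lies outside the name rule and differed by 0.05 ± 0.04 and -0.04 ± 0.04. Hils1, a spermatid linker-like histone also outside it, was well above background on all 3 arrays of the other groups. It was so on 0 of 3 knockdown arrays with vehicle, and no fold is given for that group. In control cells Hils1 stood at -6.92, -7.28 and -7.09 with vehicle and at -5.99, -5.97 and -5.79 with TGFb. The rise was 1.18 (limma, adjusted p = 0.0127). The probe is dim, and a Hils1 call was lost under quantile normalization.

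Promoters of the class share sequence letters. The RefSeq table (GRCm38.p6) holds promoters, from 250 bases before to 50 after the start, for 52 of the 62 genes. CCAAT and TATAAA, the letters of the CCAAT box and TATA box, were searched on both strands. The 2 can share the T that ends one and begins the other. CCAAT was found in 37 of 42 promoters of replication-dependent genes (88.1%), in 7 of 11 of variants (63.6%) and in 37.4% of all 32851 promoters of the table. TATAAA was found in 25 of 42 (59.5%), 1 of 11 (9.09%) and 13.6%. Of the replication-dependent genes that rose in both knockdown comparisons 10 of 10 promoters held CCAAT and 5 of 10 TATAAA, against 27 of 32 and 20 of 32 of the others, so these letters were common in both. Shown are the 120 bases before the start of 3 genes that rose, all with CCAAT in that stretch, with matches in capitals.
Hist1h1c: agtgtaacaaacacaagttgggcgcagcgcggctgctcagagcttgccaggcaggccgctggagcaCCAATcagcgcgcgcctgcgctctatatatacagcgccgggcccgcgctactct
Hist1h1d: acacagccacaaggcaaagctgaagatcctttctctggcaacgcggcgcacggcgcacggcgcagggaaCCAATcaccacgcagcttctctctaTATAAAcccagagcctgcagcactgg
Hist1h2bm: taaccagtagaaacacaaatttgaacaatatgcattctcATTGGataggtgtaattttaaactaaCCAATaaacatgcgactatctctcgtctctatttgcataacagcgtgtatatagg
They lie at chr13:23738687-23738806, chr13:23554912-23555031 and chr13:21721924-21722043 of GRCm38.p6, all on the plus strand. The CCAAT match begins 54 bases before the start in Hist1h1c, 51 in Hist1h1d and 55 in Hist1h2bm, which holds another on the minus strand (ATTGG, 81 bases before). This position was not shared by all genes that rose. In the same 120 bases Hist2h3c2 held no match, Hist1h2bg held TATAAA but no CCAAT, and Hist1h2ba held CCAAT 108 bases before the start. A match is a string of letters and not a tested site.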

How the data were processed

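RNA (500 ng a sample, copied from an oligo-dT primer, per the labels' protocols) was read on 12 one-colour Agilent arrays. The deposited scanner files hold a background-corrected intensity for each spot, made by Feature Extraction 10.7.3.1 with probe positions on mm9, per the file headers. The authors also deposited a table of log2 values, whose columns share a median of 7.93 and each matched their own array best. Its background correction is not given in the sources used here, and it served as an alternative.

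Control spots (1377 an array) and spots marked as outliers were left out, spots of a probe averaged, and log2 taken relative to the array's 75th percentile. Of 39429 probes 29972 were kept, those that every array of some group read as well above background. They were fitted in limma 3.58.1 (R 4.3.3) with 1 mean for each group, a trended prior, 8 residual degrees of freedom, two-sided tests and Benjamini-Hochberg adjustment over all kept probes at 0.05, after a check on simulated data. Errors are standard errors of that fit. Array number limits the precision.

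Members, gene lists and tests were chosen with earlier results of these data known. Named genes were Kdm6b, 15 chosen histone genes, called histone probes up to 12 in each direction a comparison, and up to 4 called members of each list with Slbp, Npat and Cenpa, and other genes named were picked with their values known. Accessions matched 70 of 75 histone probes to RefSeq, 64 with a changed symbol, and names are the files'. The start column gives the probe's offset in the transcript: where the first 15 bases of early probes were found in a promoter (38 of 50), 31 lay at that offset.

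The arrays lie on 4 slides scanned on 1 day. Slide 1 holds only vehicle arrays and slide 4 only TGFb arrays, so TGFb differences are partly mixed with slide. Arrays of different groups deviated together on a slide (12 of 12 pairs positive), and not by replicate number (6 of 18). Alternatives were other background corrections, scalings, filters, blocks and weights, and each array left out.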

Additional observations from a re-analysis of the deposited data

How the results depend on the processing

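Over 11 other settings and 12 fits without 1 array each, the count of histone probes called ran from 18 to 30 without TGFb (main 23) and from 20 to 34 with TGFb (main 27). With the slide as a block it was 30 and 34 (40.0% and 45.3%), where 39.1% and 38.0% of all probes were called. Without TGFb the share of histone probes stood further above that of all probes in some other settings. It was 32.0% against 21.5% with the authors' values, 36.0% against 26.0% with quantile normalization and 25.3% against 16.9% with scaling to the array median. The shares stayed near each other with a replicate block (26.7% against 24.9%) and with an untrended prior (28.0% against 27.3%). Over all these fits the share of all probes called ran from 16.9% to 39.1% without TGFb and from 19.7% to 40.6% with it. Leaving out an array gave 18 to 25 and 21 to 29. No called histone difference changed sign. Of the uncalled, the H2afz probe at -0.02 without TGFb was 0.14 under quantile normalization (limma, adjusted p = 0.00721). TGFb called 1 probe in control cells with estimated array weights and 1 without control TGFb replicate 1. In knockdown cells it called 3 with array weights and 1 without knockdown vehicle replicate 3. In each line the fits that leave out 1 array gave 0 to 1. The median of the variant probes with TGFb in knockdown cells was 0.04, and that of the difference of responses 0.02, with normexp. For knockdown with TGFb it was -0.01 with the authors' values, -0.11 over probes well above background on all arrays and 0.02 with 1 probe a gene, and -0.11 to -0.01 without 1 array. Of 96 calls of named probes 34 were lost when arrays were scaled to their median, 20 with the authors' values and 16 with normexp. The split at the RefSeq gene end, chosen after seeing the data, gave 5 to 8 and 6 to 9 probes higher of 9 without 1 array. Replicate numbers did not pair the arrays, and a replicate block gave 20 and 26 calls in the knockdown comparisons and 0 under TGFb. Dim probes limit the size of a change: Hist1h1d, Hist1h1t and Hist1h2bg came out below 2-fold with normexp and with the authors' values. The count of probes at least 2-fold higher, whose alternatives were added after seeing the data, was then 5 in each comparison (main 8 and 7), and it was 8 to 8 and 7 to 7 without 1 array. The causes of these shifts were not tested.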
